A study of Mus musculus with 12 samples.

Results

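The genes described are the 10 BMP and TGF-beta response genes Id1, Id2, Id3, Id4, Bmp2, Bmp4, Smad6, Smad7, Tgfb2 and Ltbp1. They belong to bone morphogenetic protein (BMP) and transforming growth factor beta (TGF-beta) signalling and were measured in cultured mouse astrocytes. They were taken by symbol from the annotation of an Affymetrix mouse array, which gave 20 single-gene probe sets, out of 45037 probe sets and 18193 genes tested in all. Tgfb2 was read by 4 probe sets, Id2, Id4 and Ltbp1 by 3 each, Smad7 by 2, and the other 5 genes by 1. The astrocytes expressed green fluorescent protein (eGFP), came from hippocampus and cortex of C57Bl/6j mice, lay for 22 h on a brain section, and were then loosened with trypsin and picked off by suction. The 4 groups, with 3 arrays each, were adult astrocytes on sections of APdE9-transgenic mice, adult astrocytes on wild-type (WT) sections, neonatal astrocytes on APdE9 sections and neonatal astrocytes on WT sections. APdE9 mice carry a chimeric mouse and human APPSwe gene (amyloid precursor protein) and a PS1-dE9 gene (presenilin), each under a mouse prion protein promoter element, and the WT sections came from littermates. Adult donors were 6 to 8 weeks old and neonatal donors 3 d old by the sample characteristics, while the growth protocol gives 2 d for the neonatal donors. Adult cells were purified with Percoll and grown with G5 supplement, and neonatal cells were not, so age cannot be told apart from isolation and medium. The titles call the arrays biological replicates, samples were pooled before RNA isolation, and nothing says that the pools came from separate cultures, so the p-values cover no more than the spread among pools, which may be technical.

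BMPs and TGF-betas are secreted dimers that bring together pairs of serine/threonine kinase receptors, which phosphorylate Smad proteins that then enter the nucleus and act on transcription. Id genes are among the most direct targets of the BMP branch, and their products hold basic helix-loop-helix factors away from DNA. Smad6 and Smad7 are induced by the pathway and inhibit it. TGF-beta is secreted in a latent complex that Ltbp1 anchors to the matrix. In the brain, BMP signalling favours the astrocyte fate over the oligodendrocyte fate, and TGF-beta is known for its part in the astrocyte response to injury.

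The start regions of 4 of the genes are shown first. Tgfb2 and Ltbp1 are shown because their arrays on APdE9 sections lay above those on WT sections at both ages. Id3 and Id4 are shown as BMP-responsive genes whose region held a Smad motif. The motif was the Smad box in Id3 and the BMP Smad element in Id4, and neither region held both. The Id3 and Id4 regions were picked for their matches, and no match in the 4 genes is taken as a finding. The Id2 region, which also held a BMP Smad element, is not shown. Each is the RefSeq sequence (GRCm38.p6) of 250 bases before to 50 bases after an annotated start, given 5′ to 3′ on the gene's strand. The coordinates are chr1:186705940-186706239 (minus strand) for Tgfb2, chr17:75005279-75005578 (plus) for the upstream start of Ltbp1, chr17:75178531-75178830 (plus) for its downstream start, chr4:136143572-136143871 (plus) for Id3 and chr13:48260866-48261165 (plus) for Id4. Capitals mark matches, on either strand, to any of 5 motifs. The BMP Smad element, bound by BMP-activated Smads, was searched as GGCGCC. The Smad box was searched as CAGAC and the E-box, read by helix-loop-helix factors, as CACGTG. The partial site for cyclic AMP-response factors was searched as TGACG. The TATA box was searched as TATAAA.
Tgfb2: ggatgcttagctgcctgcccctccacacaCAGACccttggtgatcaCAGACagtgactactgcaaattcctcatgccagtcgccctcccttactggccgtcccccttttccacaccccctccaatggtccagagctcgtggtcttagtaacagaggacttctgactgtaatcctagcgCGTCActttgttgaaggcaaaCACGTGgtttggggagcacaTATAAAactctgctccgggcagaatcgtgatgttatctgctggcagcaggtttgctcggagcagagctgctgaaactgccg
Ltbp1, upstream start: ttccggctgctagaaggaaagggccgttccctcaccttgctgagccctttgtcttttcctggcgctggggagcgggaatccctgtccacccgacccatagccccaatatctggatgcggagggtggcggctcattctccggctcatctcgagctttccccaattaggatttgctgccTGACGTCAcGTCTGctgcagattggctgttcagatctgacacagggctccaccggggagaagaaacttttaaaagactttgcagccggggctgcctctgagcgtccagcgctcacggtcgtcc
Ltbp1, downstream start: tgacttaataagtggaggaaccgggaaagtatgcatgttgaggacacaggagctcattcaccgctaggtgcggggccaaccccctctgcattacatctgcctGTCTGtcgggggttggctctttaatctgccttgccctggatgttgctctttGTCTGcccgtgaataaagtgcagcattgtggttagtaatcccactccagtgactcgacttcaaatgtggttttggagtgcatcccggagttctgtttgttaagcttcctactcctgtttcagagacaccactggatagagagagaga
Id3: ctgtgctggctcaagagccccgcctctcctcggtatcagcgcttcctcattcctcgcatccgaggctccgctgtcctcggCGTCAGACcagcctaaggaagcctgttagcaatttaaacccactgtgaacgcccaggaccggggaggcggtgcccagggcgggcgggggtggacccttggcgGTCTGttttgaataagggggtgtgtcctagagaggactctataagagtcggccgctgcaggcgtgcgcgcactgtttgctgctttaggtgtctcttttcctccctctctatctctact
Id4: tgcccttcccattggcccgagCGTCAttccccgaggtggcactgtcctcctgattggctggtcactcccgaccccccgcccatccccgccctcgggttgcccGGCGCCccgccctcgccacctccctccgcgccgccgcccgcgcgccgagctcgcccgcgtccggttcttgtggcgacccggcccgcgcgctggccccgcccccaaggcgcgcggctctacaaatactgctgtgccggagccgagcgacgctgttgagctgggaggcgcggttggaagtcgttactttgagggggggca
The Tgfb2 region held 2 Smad boxes, 1 E-box, 1 cyclic AMP partial site on the opposite strand and 1 TATA box, the last at bases -31 to -26. The upstream Ltbp1 region held the cyclic AMP partial site on both strands, overlapping at bases -73 to -66, and 1 Smad box on the opposite strand. The downstream Ltbp1 region held 2 Smad boxes, both on the opposite strand. The Id3 region held 2 Smad boxes, 1 of which overlaps a cyclic AMP partial site on the opposite strand. The Id4 region held 1 BMP Smad element and 1 cyclic AMP partial site. Among 32851 RefSeq start regions of the same length, 49.6% held a Smad box, 20.8% a cyclic AMP partial site, 13.6% a TATA box, 11.9% a BMP Smad element and 7.15% an E-box. A match describes the letters only, and which start of Ltbp1 these astrocytes used was not tested. The start region of Id2 held 1 BMP Smad element, that of Bmp4 held 1 E-box, and that of Smad6 held none of the 5 motifs. Start regions of Id1, Bmp2 and Smad7 were not searched.

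The values below are centred log2 signals, meaning that every probe set had its 12-array median set to 0 before deposit, and a gene's value is the average of its probe sets. Differences between groups can be read from it, but levels cannot, and no gene's value can be set against another gene's. For the same reason the astrocyte label could not be checked as a level. A gene was called where its limma p, adjusted by Benjamini-Hochberg over all 18193 genes, was under 0.05. In bulk RNA, fewer cells of a type and less RNA per cell cannot be told apart. The number of arrays limits the precision.

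**Figure D1:**
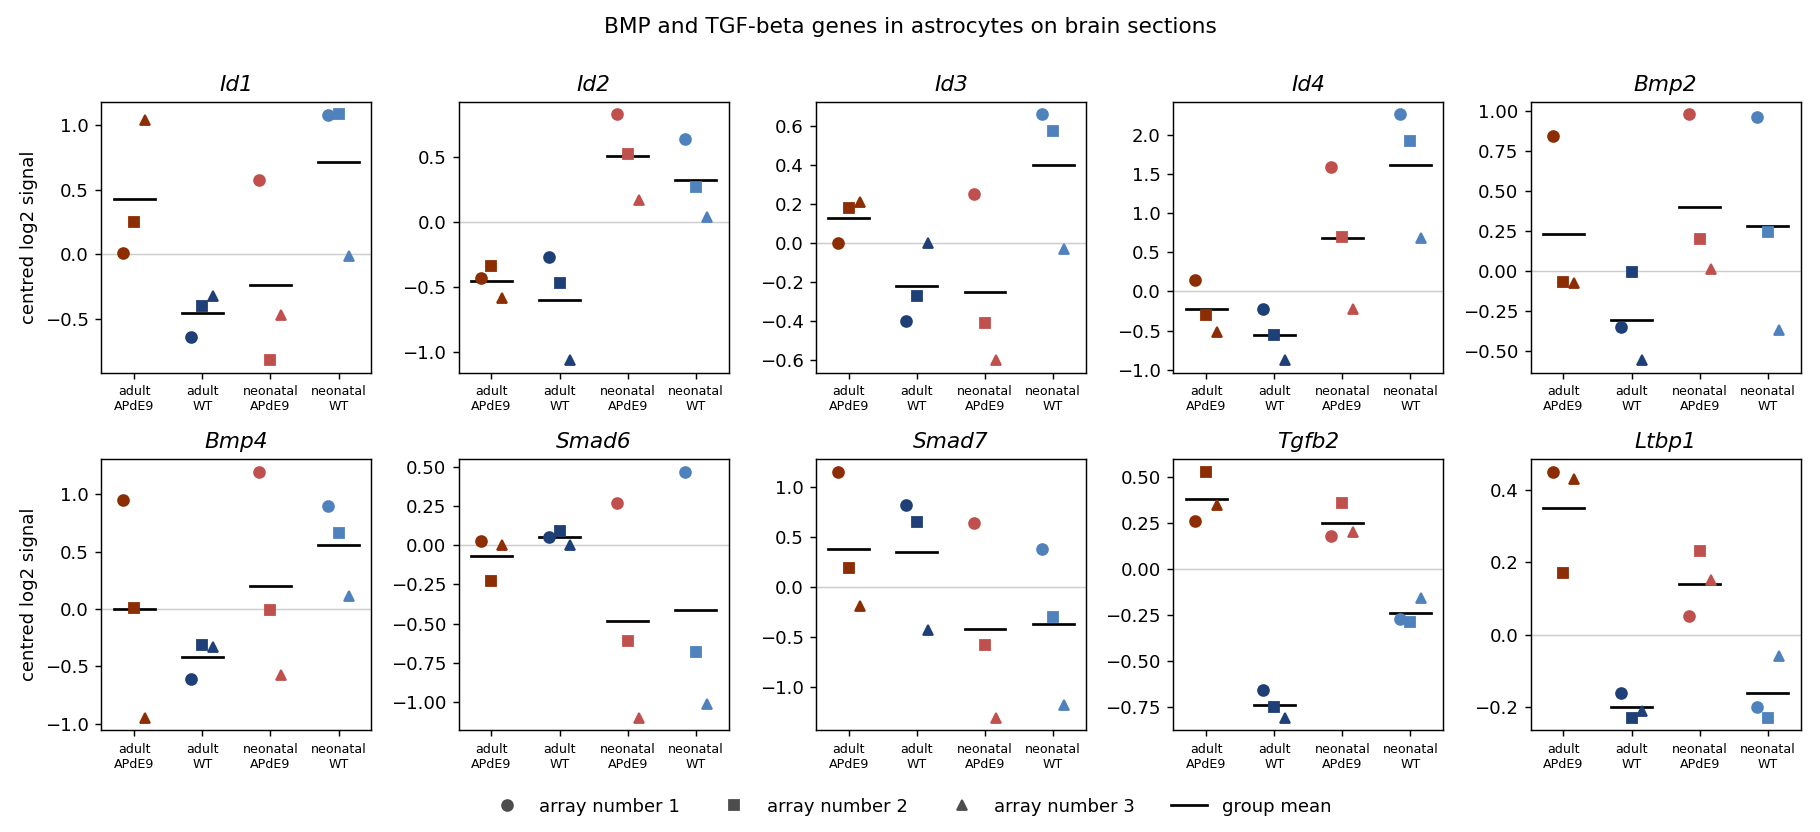
Centred log2 signal of the 10 genes (vertical axis, scaled separately for each gene) on each of the 12 arrays, by group. Symbols give the replicate number of the sample titles and lines the group means. The Tgfb2 arrays on APdE9 sections lie above those on WT sections at both ages, while the Smad7 arrays of each group are spread widely, with number 3 lowest.

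Tgfb2, which encodes a TGF-beta ligand, was higher on APdE9 sections at both ages. In adult cells its centred log2 values were 0.26, 0.53 and 0.35 on APdE9 sections, against -0.66, -0.75 and -0.81 on WT sections. In neonatal cells they were 0.18, 0.36 and 0.20 on APdE9 sections, against -0.27, -0.29 and -0.16 on WT sections. The groups did not overlap at either age, and the arrays of adult cells on WT sections were the lowest of all 12. The log2 difference, APdE9 minus WT, was 1.12 ± 0.09 in adult cells (± gives the SE from limma with 3 arrays in each group, adjusted p = 4.83e-06) and 0.49 ± 0.09 in neonatal cells (adjusted p = 0.0105), which are 2.17-fold and 1.40-fold. The adult difference exceeded the neonatal one by 0.63 ± 0.13 (95% interval 0.35 to 0.91, limma adjusted p = 0.00807). The neonatal call was lost without neonatal WT replicate 2 (0.463, limma adjusted p = 0.0627) and when the probe set with the largest spread stood for the gene (0.34, adjusted p = 0.121). After quantile normalization the excess was 0.535 (limma adjusted p = 0.0563).

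All 4 Tgfb2 probe sets were called higher in adult cells on APdE9 sections, with log2 differences from 0.73 to 1.46. In neonatal cells their differences ran from 0.34 to 0.65, and 2 of the 4 were called. The probe set 1450922_a_at had the largest adult difference (1.46 ± 0.10) and the smallest neonatal one (0.34 ± 0.10). It was the only 1 of the 4 for which the excess in adult cells was itself called (1.12 ± 0.14, limma adjusted p = 0.000775 over 45037 probe sets). The probe sets thus shared the direction, while the size of the difference varied among them.

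Ltbp1, the latent TGF-beta binding protein, was higher in adult cells on APdE9 sections. Its adult values were 0.45, 0.17 and 0.43 on APdE9 sections, against -0.16, -0.23 and -0.21 on WT sections. Its neonatal values were 0.05, 0.23 and 0.15 on APdE9 sections, against -0.20, -0.23 and -0.06 on WT sections. At both ages each array on APdE9 sections lay above each array on WT sections. The difference was 0.55 ± 0.09 in adult cells (1.46-fold, limma adjusted p = 0.00134) and 0.31 ± 0.09 in neonatal cells, which did not pass (95% interval 0.11 to 0.50, adjusted p = 0.104). The adult difference exceeded the neonatal one by 0.24 ± 0.13, which was not called (limma adjusted p = 0.302). Of its 3 probe sets, 2 were called in adult cells, and the range was 0.28 to 0.77.

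Over the 10 genes these were the only section calls in the fit without a block. In adult cells 2 of the 10 were called, both higher, where 17.7% of all genes were called, 8.26% higher and 9.40% lower. In neonatal cells 1 of the 10 was called, higher, where 3.76% of all genes were called, 1.21% higher and 2.55% lower. The median log2 difference over the 10 genes was 0.39 in adult cells, where it was 0.05 over all genes, and -0.06 in neonatal cells, where it was 0.00 over all genes. Groups did not overlap for 4 of the 10 genes in adult cells (Tgfb2, Ltbp1, Id1 and Id3, each higher on APdE9 sections), and 20.3% of all genes were higher there without overlap. In neonatal cells they did not overlap for Tgfb2 and Ltbp1, and 7.31% of all genes were higher without overlap.

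**Figure D2:**
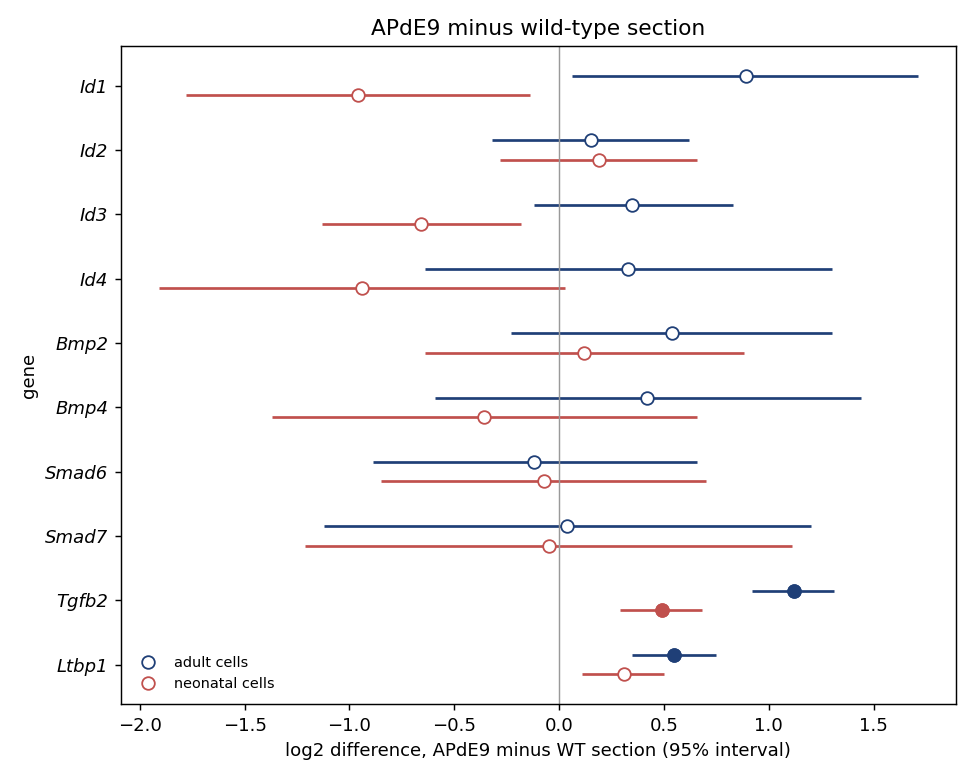
Log2 difference, APdE9 minus WT section, for the 10 genes in adult and in neonatal cells (horizontal axis), with 95% intervals of the limma fit. Filled points passed an adjusted p of 0.05. Tgfb2 (1.12 in adult and 0.49 in neonatal cells) and Ltbp1 (0.55 in adult cells) are filled, and Id1, Id3 and Id4 lie above 0 in adult and below 0 in neonatal cells.

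**Figure D3:**
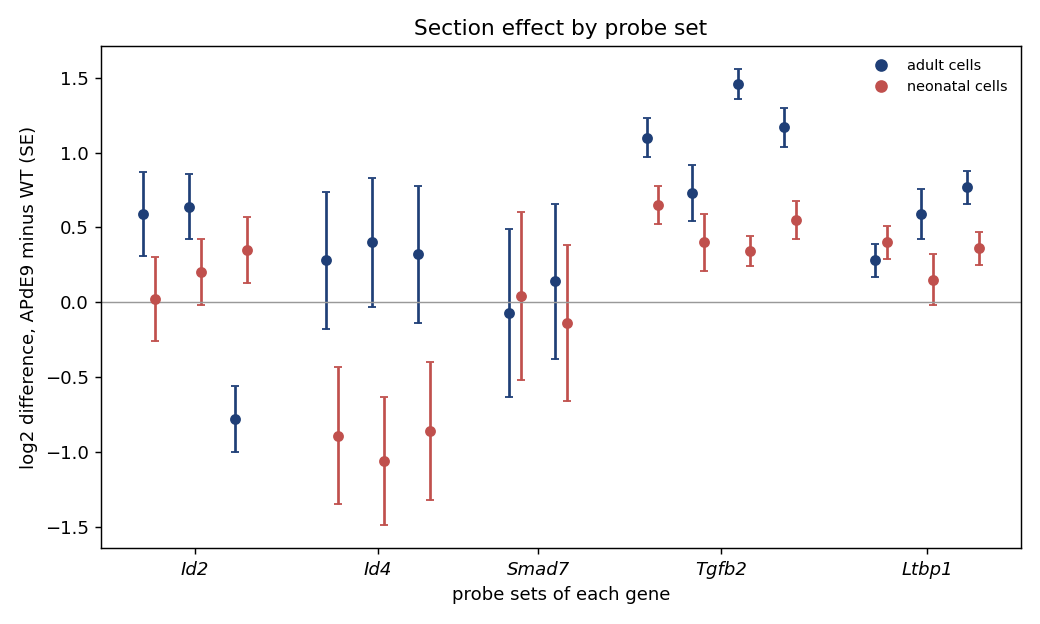
Log2 difference, APdE9 minus WT section (vertical axis, bars are SE), for each probe set of the 5 genes with more than 1, in adult and in neonatal cells. All 4 Tgfb2 probe sets lie above 0 at both ages, and in adult cells the rightmost Id2 probe set lies at -0.78 while the others lie at 0.59 and 0.64.

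Among the Id genes, Id1 was the one whose section difference changed between the ages by the test. In adult cells Id1 values were 0.01, 0.25 and 1.04 on APdE9 sections, against -0.64, -0.40 and -0.32 on WT sections. In neonatal cells they were 0.58, -0.82 and -0.47 on APdE9 sections, against 1.08, 1.09 and -0.01 on WT sections. The adult groups did not overlap and the neonatal groups did. Neither section difference passed by itself (0.89 ± 0.38, limma adjusted p = 0.134 in adult cells, and -0.96 ± 0.38, adjusted p = 0.240 in neonatal cells). The adult one passed when only the arrays compared were fitted (0.887, limma adjusted p = 0.0423), and the neonatal one with array weights (-1.378, adjusted p = 0.00797). Within each replicate number the neonatal array on the APdE9 section was the lower one, with differences of -0.50, -1.91 and -0.46. The adult minus the neonatal difference was 1.85 ± 0.53 (95% interval 0.68 to 3.01, limma adjusted p = 0.0483). Of the 10 genes, 2 were called in this comparison, Id1 and Tgfb2, both positive, where 10.1% of all genes were called, 5.19% positive and 4.88% negative.

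The Id1 call sat at the threshold. It was kept in 9 of 21 alternative fits, and the value ran from 1.54 to 2.26 over the 21. It was lost without neonatal WT replicate 1 (limma adjusted p = 0.0980) or 2 (0.121), neonatal APdE9 replicate 2 (0.112) or 3 (0.0974), adult WT replicate 1 (0.0985), 2 (0.0939) or 3 (0.0731), and adult APdE9 replicate 2 (0.0795) or 3 (0.0943). The adjusted p was 0.0549 with median centring, 0.0697 with quantile normalization and 0.0791 with robust variances.

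Id3 also lay above its WT values in adult cells and below them in neonatal cells, without a call in the fit with no block. Its adult values were 0.00, 0.18 and 0.21 on APdE9 sections, against -0.40, -0.27 and 0.00 on WT sections. Its neonatal values were 0.25, -0.41 and -0.60 on APdE9 sections, against 0.66, 0.57 and -0.03 on WT sections. The adult groups met at 0.00 (to 2 decimals) without crossing, and the neonatal groups overlapped, although within each replicate number the neonatal array on the APdE9 section was the lower one (-0.41, -0.99 and -0.57). The section differences were 0.35 ± 0.22 in adult cells (limma adjusted p = 0.304) and -0.66 ± 0.22 in neonatal cells (adjusted p = 0.146), and the adult minus the neonatal one was 1.01 ± 0.31 (adjusted p = 0.0598). Without neonatal APdE9 replicate 1 the neonatal difference was -0.909 (limma adjusted p = 0.0336) and the adult minus neonatal one 1.263 (adjusted p = 0.0116). Without neonatal WT replicate 3 the adult minus neonatal one was 1.226 (limma adjusted p = 0.0181). It was 1.265 with array weights (limma adjusted p = 0.00388) and 1.011 with the 40% of genes of lowest SD left out (adjusted p = 0.0441), and with array weights the neonatal difference was -0.886 (adjusted p = 0.00407).

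Id4, a family member made in neural progenitors and astrocytes, had the widest span of group means among the 10 genes (2.18). Its adult values were 0.15, -0.30 and -0.52 on APdE9 sections, against -0.23, -0.56 and -0.88 on WT sections. Its neonatal values were 1.59, 0.69 and -0.23 on APdE9 sections, against 2.27, 1.92 and 0.68 on WT sections. The groups overlapped at both ages, yet within each replicate number the neonatal array on the APdE9 section was the lower one, with differences of -0.67, -1.23 and -0.91. The neonatal section difference was -0.94 ± 0.45 (limma adjusted p = 0.362). With the replicate number as a block, its SE was 0.21 and its limma adjusted p 0.0261, and 2 of the 10 genes (Id4 and Tgfb2) were then called where 5.57% of all genes were. The block took the step between numbers as the same in all 4 groups. For Id4, number 3 minus number 1 was -1.82 and -1.59 in neonatal APdE9 and WT arrays, but -0.67 and -0.64 in the adult ones. In adult cells the section difference was 0.33 ± 0.45 (limma adjusted p = 0.664). The 3 Id4 probe sets lay between 0.28 and 0.40 in adult cells and between -1.06 and -0.86 in neonatal cells.

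Id2 was not called for section at either age. Its values were -0.43, -0.34 and -0.58 in adult cells on APdE9 sections, against -0.27, -0.47 and -1.06 on WT sections. In neonatal cells they were 0.83, 0.52 and 0.17 on APdE9 sections, against 0.64, 0.27 and 0.04 on WT sections. The groups overlapped at both ages, with section differences of 0.15 ± 0.22 in adult and 0.19 ± 0.22 in neonatal cells (limma adjusted p = 0.689 and 0.826). In adult cells the Id2 probe sets disagreed. The probe set 1453596_at was lower on APdE9 sections (-0.78 ± 0.22, limma adjusted p = 0.0373 over the 45037 probe sets), while 1422537_a_at lay at 0.59 ± 0.28 and 1435176_a_at at 0.64 ± 0.22, neither called (adjusted p = 0.205 and 0.0890). The adult Id2 value is thus a mean of opposed readings, and which transcripts each probe set detects was not tested.

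Bmp2 and Bmp4, ligands of the BMP branch, were not called for section at either age. Bmp2 values were 0.84, -0.07 and -0.08 in adult cells on APdE9 sections, against -0.35, -0.01 and -0.56 on WT sections. They were 0.98, 0.20 and 0.01 in neonatal cells on APdE9 sections, against 0.96, 0.24 and -0.37 on WT sections. The Bmp2 groups overlapped at both ages. Bmp4 values were 0.95, 0.01 and -0.95 in adult cells on APdE9 sections, against -0.61, -0.31 and -0.33 on WT sections. They were 1.20, -0.01 and -0.58 in neonatal cells on APdE9 sections, against 0.90, 0.66 and 0.11 on WT sections. At both ages the Bmp4 arrays on APdE9 sections spanned those on WT sections. In adult cells the difference was 0.54 ± 0.35 for Bmp2 (95% interval -0.23 to 1.30, limma adjusted p = 0.334) and 0.42 ± 0.47 for Bmp4 (95% interval -0.59 to 1.44, adjusted p = 0.588). In neonatal cells it was 0.12 ± 0.35 for Bmp2 (limma adjusted p = 0.953) and -0.36 ± 0.47 for Bmp4 (adjusted p = 0.862).

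Smad6 and Smad7, the inhibitory Smads, had section differences near 0 with wide intervals. Smad7 values were 1.15, 0.19 and -0.19 in adult cells on APdE9 sections, against 0.82, 0.65 and -0.43 on WT sections. They were 0.64, -0.58 and -1.31 in neonatal cells on APdE9 sections, against 0.38, -0.30 and -1.18 on WT sections. The Smad7 groups overlapped at both ages, and its difference was 0.04 ± 0.53 in adult cells (95% interval -1.12 to 1.20) and -0.05 ± 0.53 in neonatal cells (95% interval -1.21 to 1.11). Smad6 values were 0.03, -0.23 and 0.00 in adult cells on APdE9 sections, against 0.05, 0.09 and 0.00 on WT sections. They were 0.27, -0.61 and -1.10 in neonatal cells on APdE9 sections, against 0.47, -0.68 and -1.01 on WT sections. Its difference was -0.12 ± 0.36 in adult cells and -0.07 ± 0.36 in neonatal cells. The limma adjusted p of both genes lay between 0.862 and 0.992.

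The replicate number moved with several of these genes. The arrays numbered 3 were lower than those numbered 1 in all 4 groups for 5 of the 10 genes (Id2, Id4, Bmp2, Smad6 and Smad7), where this held for 11.4% of all genes. For Smad7 the difference, number 3 minus number 1, was -1.34 in adult APdE9, -1.25 in adult WT, -1.95 in neonatal APdE9 and -1.56 in neonatal WT arrays. Id1 and Id3 were higher on number 3 in both adult groups and lower in both neonatal groups. Tgfb2 and Ltbp1 stayed between -0.15 and 0.14 in the 4 groups. The labels do not say what the number stands for, and its part in the values was not tested beyond the block fit.

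**Figure D4:**
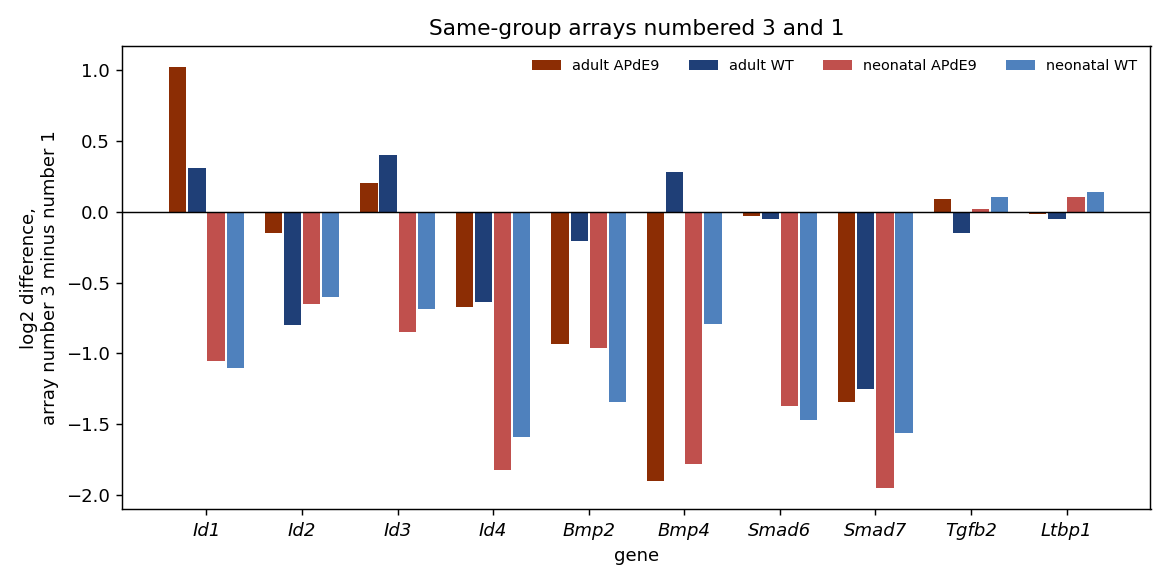
Log2 difference between the arrays numbered 3 and 1 of the same group (vertical axis) for the 10 genes, 1 bar per group. The 4 Smad7 bars lie between -1.95 and -1.25, and those of Tgfb2 and Ltbp1 between -0.15 and 0.14.

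The spread within groups also differed among the 10 genes. The SD within groups was 0.10 for Tgfb2 and for Ltbp1, where the median over all genes was 0.13. It was between 0.31 and 0.79 for the other 8 genes, which placed them from the 94.3 to the 99.7 percentile of all genes. With the replicate number removed as well, the SD was 0.25 for Smad7 and 0.34 for Id4, against 0.79 and 0.66 without that step. For Id1 it was 0.63, against 0.56.

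Adult cells were also set against neonatal cells on the same kind of section. On WT sections 5 of the 10 genes were called lower in adult cells, namely all 4 Id genes and Tgfb2, and none was called higher. Of all genes 30.1% were called there, 15.2% lower and 14.9% higher. Id4 had the largest step of the 10, at -2.18 ± 0.45 (4.53-fold lower in adult cells, limma adjusted p = 0.00237), and its 3 probe sets were all called, between -2.26 and -2.10. Id2 was at -0.92 ± 0.22 (limma adjusted p = 0.00591) and Tgfb2 at -0.50 ± 0.09 (adjusted p = 0.000955). Of the 3 Id2 probe sets 2 were called (-1.24 and -1.25), while 1453596_at lay at -0.26 ± 0.22 (limma adjusted p = 0.497). Of the 4 Tgfb2 probe sets 2 were called, and the range was -0.86 to -0.31. The median over the 10 genes was -0.61, where it was 0.01 over all genes. Adult and neonatal arrays did not overlap for 5 of the 10 genes (Id1, Id2, Id4, Tgfb2 and Bmp4), and 20.3% of all genes were lower without overlap. Bmp4 was at -0.98 ± 0.47 and was not called (limma adjusted p = 0.150), but it passed when only the arrays compared were fitted (-0.976, adjusted p = 0.00704) and with array weights (-1.043, adjusted p = 0.0151). Smad6 was at 0.46 ± 0.36 (limma adjusted p = 0.404) and passed with array weights (0.682, adjusted p = 0.0306) and without neonatal WT replicate 1 (0.892, adjusted p = 0.0415).

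Id1 and Id3 passed on WT sections with less margin. Id1 was at -1.17 ± 0.38 (limma adjusted p = 0.0333) and Id3 at -0.63 ± 0.22 (adjusted p = 0.0469), and the adult and neonatal Id3 arrays overlapped. The Id1 call was lost without neonatal WT replicate 1 (limma adjusted p = 0.115) or 2 (0.127) and without adult WT replicate 1 (0.0989), 2 (0.0755) or 3 (0.0579). The Id3 call was lost without neonatal WT replicate 1 (limma adjusted p = 0.164) or 2 (0.156), adult WT replicate 1 (0.149) or 2 (0.119), neonatal APdE9 replicate 2 (0.0569) and adult APdE9 replicate 1 (0.0547), 2 (0.0631) or 3 (0.0569). With quantile normalization the adjusted p was 0.0817 for Id1 and 0.0664 for Id3, and with robust variances 0.0570 and 0.0521. For Id3 it was 0.0504 when the probe set with the largest spread stood for the gene.

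On APdE9 sections 1 of the 10 genes was called, Id2, lower in adult cells by -0.96 ± 0.22 (limma adjusted p = 0.00586). Of all genes 23.5% were called there, 11.9% lower and 11.7% higher. Of the 3 Id2 probe sets 2 were called there, and the range was -1.40 to -0.67. The largest step was that of 1453596_at (-1.40 ± 0.22), which was not called on WT sections. The probe set 1422537_a_at, called on WT sections, was not called here (-0.67 ± 0.28, limma adjusted p = 0.136). The adult and neonatal Id2 arrays did not overlap, and 16.4% of all genes were lower without overlap. Id4 was at -0.91 ± 0.45 (limma adjusted p = 0.175), Id1 at 0.67 ± 0.38 (0.240), Id3 at 0.38 ± 0.22 (0.245), Smad7 at 0.80 ± 0.53 (0.326) and Tgfb2 at 0.13 ± 0.09 (0.340). With the replicate number as a block over all 4 groups, Id4 (limma adjusted p = 0.00730) and Smad7 (adjusted p = 0.00340) also passed. This made 3 of the 10 genes where 27.9% of all genes were called. Smad7 was higher in the adult array of each number, by 0.51, 0.77 and 1.12. Without neonatal APdE9 replicate 1, Id1 (1.082, limma adjusted p = 0.0493) and Id3 (0.636, adjusted p = 0.0356) passed. Id4 passed without neonatal APdE9 replicate 3 (-1.367, limma adjusted p = 0.0397), and Ltbp1 (0.21 ± 0.09 on all arrays, adjusted p = 0.132) passed without adult APdE9 replicate 2 (0.299, adjusted p = 0.0341). A gene's age differences on the 2 kinds of section differ by the same amount as its section differences at the 2 ages, so of the 10 genes the change of age difference with section was called for Id1 and Tgfb2.

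**Figure D5:**
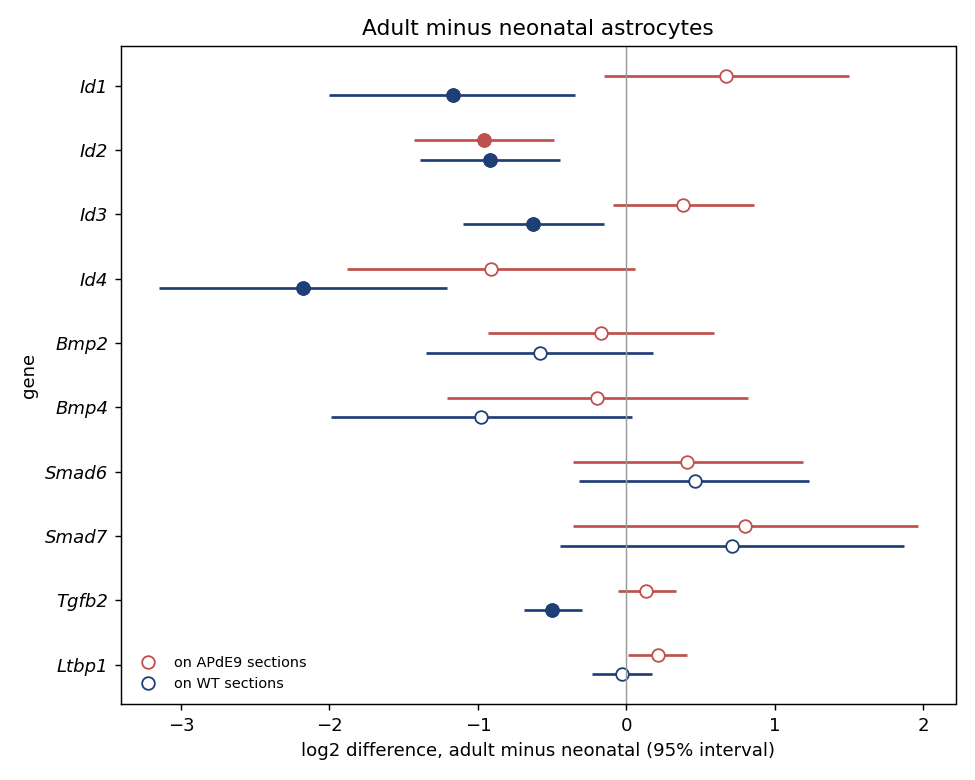
Log2 difference, adult minus neonatal astrocytes, for the 10 genes on APdE9 and on WT sections (horizontal axis), with 95% intervals of the limma fit. Filled points passed an adjusted p of 0.05. Id1, Id2, Id3, Id4 and Tgfb2 are filled on WT sections, with Id4 lowest at -2.18, and Id2 alone is filled on APdE9 sections.

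In order, the group means of Id4 were -0.56 in adult WT, -0.23 in adult APdE9, 0.68 in neonatal APdE9 and 1.62 in neonatal WT arrays. Those of Id1 were -0.45 in adult WT, -0.24 in neonatal APdE9, 0.43 in adult APdE9 and 0.72 in neonatal WT arrays. In both genes the arrays of neighbouring groups in this order overlapped. Those of Tgfb2 were -0.74 in adult WT, -0.24 in neonatal WT, 0.25 in neonatal APdE9 and 0.38 in adult APdE9 arrays, and of these only the 2 APdE9 groups overlapped. Ltbp1 had the same order as Tgfb2, and its 2 WT groups overlapped as well as its 2 APdE9 groups.

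The genes with the closest profiles over the 12 arrays were sought for the 4 genes whose group means spanned more than 1, by the root mean square difference of the centred values. Nearest to Tgfb2 were Cdk20 (0.19), the semaphorin receptor gene Plxnd1 (0.19) and Dhx58 (0.20), a regulator of RNA sensing. Nearest to Id4 were Rhpn2 (0.29), the chemokine receptor gene Cxcr4 (0.29) and the potassium channel gene Kcnf1 (0.36). Nearest to Id2 were Slc25a33 (0.19), the NF-kappaB subunit gene Relb (0.19) and Zfp811 (0.20). For Id1 the nearest were further off, with Mfsd2a at 0.41, Cfap45 at 0.44 and Srxn1 at 0.46.

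The rest of the pathway was read from 8 lists, of whose 90 genes 82 were measured. The list counts for section stand against 8.26% of all genes higher and 9.40% lower in adult cells, and 1.21% higher and 2.55% lower in neonatal cells. On APdE9 sections 3 of 12 genes listed as other ligands rose and 2 fell in adult cells, while 1 fell in neonatal cells. The 12 include Bmp1, which encodes a protease rather than a ligand and was called in no comparison. Gdf10, a BMP-like ligand, was higher in adult cells (1.18 ± 0.12, limma adjusted p = 2.35e-05) and lower in neonatal cells (-1.20 ± 0.12, adjusted p = 0.000252) on APdE9 sections. Tgfb3, another TGF-beta ligand, was higher in adult cells (1.32 ± 0.14, limma adjusted p = 4.40e-05) and lay at 0.37 ± 0.14 in neonatal cells (adjusted p = 0.217). Tgfb1 was at 0.50 ± 0.13 in adult cells (limma adjusted p = 0.0185), so that Tgfb1, Tgfb2 and Tgfb3 were each called higher there. Inhbb, an activin subunit, fell in adult cells (-1.27 ± 0.08, limma adjusted p = 1.22e-06).

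Of 15 receptors and co-receptors, 2 rose in adult cells on APdE9 sections, the BMP type I receptor gene Acvr1 (0.64 ± 0.13) and the endoglin gene Eng (0.48 ± 0.13). In neonatal cells 1 rose, Acvrl1 (0.50 ± 0.12), and none fell at either age. Bambi, a decoy receptor gene that is itself a BMP target, was lower in adult than in neonatal cells on APdE9 sections (-1.10 ± 0.25, limma adjusted p = 0.00644) and on WT sections (-2.10 ± 0.25, adjusted p = 3.50e-05). Other listed targets went both ways by age, as given below. Of the 6 signal-carrying Smads, Smad2 fell in adult cells on APdE9 sections (-0.28 ± 0.08, limma adjusted p = 0.0285), and no other was called for section at either age.

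Of 12 extracellular antagonists, 2 rose and 4 fell in adult cells on APdE9 sections, and 1 rose and 1 fell in neonatal cells. In adult cells the activin binder Fst was at -1.33 ± 0.27, its relative Fstl3 at -1.01 ± 0.08 and the protease gene Htra1 at 1.32 ± 0.09 (limma adjusted p from 9.71e-07 to 0.00431). Of 7 other genes of latent TGF-beta storage and activation, the TGF-beta activator Thbs1 fell in adult cells (-2.28 ± 0.47, limma adjusted p = 0.00500), and none was called in neonatal cells. Of 7 intracellular inhibitors, the TGF-beta target Pmepa1 (0.43 ± 0.09) and the ubiquitin ligase gene Smurf1 (0.37 ± 0.09) rose in adult cells, and none was called in neonatal cells.

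Of 16 other targets of the pathway, 2 rose (Tgfbi and Atoh8) and 5 fell in adult cells on APdE9 sections, and none was called in neonatal cells. Tagln (-3.37 ± 0.15) and Acta2 (-1.38 ± 0.13), both of the contractile apparatus of smooth muscle, and the repressor gene Snai2 (-1.31 ± 0.34) fell the most. Acta2 is also 1 of the fibroblast and mural cell markers given below. Of 7 helix-loop-helix partners of Id proteins, Olig1 (1.30 ± 0.09) and Olig2 (1.53 ± 0.23), factors of the oligodendrocyte lineage, rose in adult cells on APdE9 sections. Olig1 fell in neonatal cells on APdE9 sections (-0.43 ± 0.09, limma adjusted p = 0.0246). By age on WT sections, Olig1 (-4.00 ± 0.09), Olig2 (-3.60 ± 0.23) and the Notch target Hes5 (-3.97 ± 0.55) were lower in adult cells.

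By age 11.7% of all genes were higher and 11.9% lower in adult cells on APdE9 sections, and 14.9% higher and 15.2% lower on WT sections. The list counts on WT sections were 4 ligands higher and 1 lower in adult cells, 4 receptors higher and 4 lower, 2 Smads higher, 6 antagonists higher and 3 lower, and 1 storage gene higher. They were also 1 intracellular inhibitor higher and 1 lower, 5 other targets higher and 3 lower, and 3 helix-loop-helix partners lower. The antagonist Bmper (2.49 ± 0.13) and Fst (1.65 ± 0.27) were among the higher ones there. On APdE9 sections the counts were 3 ligands higher and 2 lower, 4 receptors higher and 3 lower, 1 Smad higher, 5 antagonists higher and 1 lower, and 2 storage genes higher. They were also 3 intracellular inhibitors higher and 1 lower, 3 other targets higher and 4 lower, and 1 partner higher and 3 lower. Of the other targets, Msx1 was higher in adult cells on APdE9 sections (1.49 ± 0.18, limma adjusted p = 4.03e-05) and on WT sections (2.11 ± 0.18, adjusted p = 1.36e-06). Snai1 was higher on both, at 1.35 ± 0.14 on APdE9 sections (limma adjusted p = 1.79e-05). Snai2 was higher on WT sections (2.01 ± 0.34, limma adjusted p = 0.000599). Msx2 and Tsc22d1 were lower in adult cells on both. The storage gene Ltbp4, a relative of Ltbp1, was higher in adult cells on APdE9 sections (1.77 ± 0.18, limma adjusted p = 1.02e-05) and on WT sections (1.36 ± 0.18, adjusted p = 7.92e-05).

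Markers of cell types moved with these comparisons. Their counts for section stand against 8.26% of all genes higher and 9.40% lower in adult cells, and 1.21% higher and 2.55% lower in neonatal cells. Of 9 astrocyte markers, 5 were higher and 1 lower on APdE9 sections in adult cells, and 4 were lower and none higher in neonatal cells. Their array means of centred values ran from -0.67 to -0.65 in adult APdE9, -0.85 to -0.81 in adult WT, 0.58 to 0.73 in neonatal APdE9 and 1.07 to 1.13 in neonatal WT arrays. Microglia were shaken off the cultures before use, per the labels. Of 10 microglia markers, 4 were higher and 1 lower on APdE9 sections in adult cells, and 2 were higher in neonatal cells. Their array means ran from -1.59 to -1.49 in adult APdE9, -2.14 to -1.87 in adult WT, 1.95 to 2.14 in neonatal APdE9 and 1.42 to 1.93 in neonatal WT arrays. By age 9 of the 10 were lower in adult cells on each kind of section, where 11.9% of all genes were lower on APdE9 sections and 15.2% on WT sections. The astrocyte markers had 5 lower and 1 higher in adult cells on APdE9 sections, and 7 lower and 2 higher on WT sections. The median age difference of the astrocyte markers was -0.73 on APdE9 sections and -1.04 on WT sections. That of the microglia markers was -3.62 on APdE9 sections and -4.13 on WT sections. Genes higher by age were 11.7% of all on APdE9 sections and 14.9% on WT sections.

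Of 10 fibroblast and mural cell markers, 4 were lower on APdE9 sections in adult cells, and 2 were higher and 1 lower in neonatal cells. Their array means ran from 0.05 to 0.26 in adult APdE9, 0.62 to 0.83 in adult WT, -0.43 to -0.29 in neonatal APdE9 and -0.61 to -0.18 in neonatal WT arrays. By age 6 of the 10 were higher and none lower in adult cells on WT sections, with a median difference of 0.88. On APdE9 sections 3 were higher and 1 lower by age, with a median of -0.01. Of 8 endothelial markers none was called for section in adult cells and 1 was lower in neonatal cells. Of 5 oligodendrocyte markers, 3 were higher on APdE9 sections in adult cells, and 2 were higher and 1 lower in neonatal cells. Of 6 neuron markers, 1 was lower in adult cells and none was called in neonatal cells. By age on WT sections 2 endothelial markers were higher and 4 lower in adult cells. There 1 oligodendrocyte marker was lower, and 1 neuron marker was higher and 1 lower. By age on APdE9 sections 3 endothelial markers were higher and 3 lower, and the oligodendrocyte and neuron lists each had 1 higher and 1 lower. No marker could be read as absent, since levels had been removed, and the part of these cell types in the values of the 10 genes was not tested.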

How the data were processed

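RNA of 12 samples was measured on Affymetrix arrays. The deposited values are log2 values made by the authors with RMA, per the submitters' processing notes, for 45101 probe sets. The base follows from that method and is not stated elsewhere. From the values, each probe set had been centred on its median over the 12 arrays (45095 of 45095 complete probe sets had a median of 0 within 1e-06). Array medians ran from -0.039 to 0.034. Each value of the 12 deposited columns is a score only in that the authors made it with RMA and it was centred before deposit. In 4 of the columns, 6 values had an absolute size above 100 and were set to missing, none of them in the probe sets described. These 4 columns were otherwise fitted as centred log2 signals, like the other 8.

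After 64 controls were left out, 45037 probe sets were tested, of which 932 named several genes and 9160 none. Of 34945 single-gene probe sets, 34741 matched RefSeq (GRCm38.p6). Single-gene probe sets of a gene were averaged, which gave 18193 genes. Group means were fitted with limma 3.58.1 in R 4.3.3 over all 12 arrays, with Benjamini-Hochberg adjustment over all genes and a threshold of 0.05. The 5 comparisons were APdE9 against WT section at each age, the difference of these, and adult against neonatal cells on each section. The fit was tested on simulated data with independent noise on each array and changes put into the neonatal APdE9 arrays only. Shifts shared by arrays of the same replicate number were not simulated, so the fit was not tested against them.

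The 10 genes, the pathway lists and the marker lists were chosen with earlier results of these data known. The text names the 10 genes, up to 3 called genes with the largest difference per pathway list and comparison, and the 3 nearest profiles. Tgfb1, Tgfbi and Atoh8 and the genes in counts of 5 or fewer were named after their values were seen. Same-numbered arrays were taken as paired where every correlation of their deviations was over 0.1. These were 0.239, 0.183 and 0.477 for section in neonatal cells. Adult and neonatal arrays on APdE9 sections gave 0.460, 0.266 and 0.503. The fits were repeated with the replicate block, with array weights, after quantile normalization or median centring, on only the arrays compared, with robust variances, with 1 probe set per gene, after a filter dropping the 40% of genes with the lowest SD, with decimal points restored in the damaged values, and without each array. Background correction and a filter on dim probes need levels and were not run.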

Additional observations from a re-analysis of the deposited data

Results flagged for a closer look

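The difference between the section effects at the 2 ages (APdE9 minus WT in adult cells, less the same in neonatal cells) passed the limma test (adjusted p under 0.05) for the following genes. Of the 10 genes these were Id1 (1.85) and Tgfb2 (0.63). For Id1 neither section difference passed at its own age, and for Tgfb2 both did. The call of Id1 was lost in 12 of 21 alternative fits and that of Tgfb2 in 1.

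Of the listed ligands, Gdf10 (2.38) and Tgfb3 (0.95) had a positive difference and Inhbb (-1.39) a negative one. Gdf10 was called in opposite directions at the 2 ages. Among receptors and Smads, Acvrl1 (-0.77) and Smad2 (-0.41) were negative. Among antagonists and intracellular inhibitors, Htra1 (1.39), Nbl1 (0.72) and Pmepa1 (0.48) were positive and Fstl3 (-0.97) was negative. Among other targets, Tgfbi (0.84) and Atoh8 (0.77) were positive, and Tagln (-2.89) and Acta2 (-1.25) were negative. Of the helix-loop-helix partners, Olig1 (1.73) and Tcf3 (0.64) were positive. With 3 arrays in each group, single arrays were not tested as outliers.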

How the results depend on the processing

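Over 50 values (10 genes in 5 comparisons) and 21 alternatives, 12 of which leave out an array, 954 of 1050 kept direction and side of the threshold, 33 lost the call, 27 gained it and 36 changed sign. Of the 11 called values, 6 kept the call in all 21: Tgfb2 and Ltbp1 for section in adult cells, Id2 for age on both sections, and Id4 and Tgfb2 for age on WT sections. The causes of the changes below were not tested.

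For section in adult cells, 2 of the 10 genes were called, against 3 with only the arrays compared (Id1 was added) and 2 in the 20 other alternatives. For section in neonatal cells, 1 of the 10 genes was called, against 5 with array weights (Id1, Id3, Id4, Tgfb2 and Ltbp1, with Id4 at -1.365 and Ltbp1 at 0.37), 2 with the replicate block, 0 with the probe set of largest SD and 0 to 2 when an array was left out (0 without WT replicate 2, 2 without APdE9 replicate 1). All genes called were 684, against 2160 with array weights, 272 with only the arrays compared and 263 to 761 when an array was left out (263 without WT replicate 2, 411 and 436 without APdE9 replicates 1 and 2). For the difference of section effects, 2 were called, against 0 with quantile normalization, 1 with median centring, 4 with array weights (Id4 at 1.66), 4 with the replicate block, 1 with robust variances and 1 to 3 when an array was left out. All genes called were 1831, against 3427 with array weights and 1208 to 1811 when an array was left out (1208 without neonatal WT replicate 2, 1218 without adult WT replicate 2). For age on APdE9 sections, 1 was called, against 3 with the replicate block and 1 to 3 when an array was left out. For age on WT sections, 5 were called, against 3 with quantile normalization, 8 with the replicate block, 3 with robust variances and 3 to 5 when an array was left out.

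In the adult section and WT age comparisons the replicate numbers did not pass the pairing check (0.287, -0.106 and 0.447, and 0.380, 0.024 and 0.383), so their block fits stand only here. With the block, Id3 (limma adjusted p = 0.0442) and Id4 (0.0166) were called for the difference of section effects, and Bmp2 (0.0468), Bmp4 (0.0344) and Smad7 (0.00547) for age on WT sections, which made 4 and 8 of the 10 genes where 14.4% and 34.2% of all genes were called. The block changed no other call of the 10 genes beside those given in the report.

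None of the values that changed sign was called. With array weights these were Smad6 (0.004) for section in neonatal cells, Smad7 (-0.105) for section in adult cells and Ltbp1 (0.013) for age on WT sections. With the probe set of largest SD they were Smad7 for section in neonatal (0.036) and adult cells (-0.071) and for their difference (-0.108), and Id2 for that difference (0.444). When an array was left out, section differences in neonatal cells ran from -0.205 to 0.465 for Bmp2, -0.853 to 0.037 for Bmp4, -0.446 to 0.364 for Smad6 and -0.579 to 0.395 for Smad7. In adult cells they ran from -0.082 to 0.316 for Id2, -0.049 to 0.898 for Bmp4 and -0.352 to 0.323 for Smad7. Their difference ran from -0.272 to 0.126 for Id2, -0.480 to 0.330 for Smad6 and -0.359 to 0.615 for Smad7. Age differences ran from -0.476 to 0.119 for Bmp2 and -0.669 to 0.301 for Bmp4 on APdE9 sections, and from -0.066 to 0.018 for Ltbp1 on WT sections. Signal over background could not be read from centred values.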
